A study of Mus musculus with 19 samples.

Results

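The genes described here are 29 genes of DNA replication in mouse hepatocytes, chosen by symbol from the 35274 genes listed, and all 29 were found and passed the filter on low counts. RNA was measured in 3 populations with 5 samples each. The GREEN group held DR-derived hepatocytes from livers with chronic injury, where DR is an abbreviation left unexplained in the labels. The RED group held native hepatocytes with the red tdTomato reporter from livers with chronic injury, and the CTL group held native hepatocytes from healthy control livers. All animals, controls included, carried OPN-CreERT2 and Rosa26R-mT/mG: an inducible Cre driven by the osteopontin promoter, which is active in bile duct cells among others, and a reporter that is red until Cre acts and green afterwards, in that cell and in the cells that come from it. The sources used here do not give the injury agent, or the age and sex of the animals.

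A cell copies its DNA once per division. Origins are first licensed, when the origin recognition complex, Cdc6 and Cdt1 load the ring-shaped helicase Mcm2 to Mcm7 onto DNA; Cdc45 and the GINS complex then switch the helicase on, the polymerases copy both strands on the sliding clamp PCNA, and nucleases and a ligase join the pieces. Adult hepatocytes are mostly at rest and can enter the cell cycle again after injury, and many of these genes are known targets of the E2F factors, which act at the entry into S phase.

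In GREEN samples, against CTL samples, 15 of the 29 genes rose and none fell in edgeR's quasi-likelihood test, at a p under 0.05 adjusted over all genes tested. Tk1 had an unadjusted p under 0.05 in the lower direction, and DESeq2 called it lower. All genes tested gave 29.5% higher and 18.6% lower by the same rule, against 51.7% of the replication genes higher. Mcm6, Lig1, Uhrf1, Orc1 and Cdc6 had the largest fold changes among the 15, with fitted log2 fold changes of 1.94, 2.18, 2.26, 2.50 and 2.22. By the same rule 2 genes were called higher in RED than in CTL, Mcm6 and Cdc6, and 2 in GREEN than in RED, Pola1 and Pole. Those counts, 6.9% of the 29 genes each, were below the shares of all genes called higher, which were 14.2% in RED versus CTL and 9.68% in GREEN versus RED. An unadjusted p under 0.05 was reached by 11 of the 29 genes in RED versus CTL and 4 in GREEN versus RED. The median log2 fold change of the 29 genes was 0.74 in GREEN versus CTL, 0.31 in GREEN versus RED and 0.34 in RED versus CTL, beside 0.11, -0.02 and 0.05 over all 16387 genes tested. Of the 29 genes, 5 (Orc1, Pold1, Pole, Lig1 and Rrm1) had every GREEN sample above every CTL sample, where 21.0% of all genes tested did. None had every GREEN sample above every RED sample, or every RED sample above every CTL sample, which 6.66% and 10.6% of all genes did. Of the 15 genes called in GREEN versus CTL, Pola1 and Pole also passed in GREEN versus RED, the test between the injured groups. The comparisons share samples with each other.

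The count of 15 depended on which GREEN libraries were kept. Without GREEN 4 and GREEN 5, the 2 GREEN libraries of experiment 1, 2 of the 29 genes were called in GREEN versus CTL, Mcm6 (log2 fold change 1.34) and Lig1 (1.46), and the median of the 29 was 0.45, against 0.74 with all libraries. Within experiment 2, which holds GREEN 1 to 3, 2 genes were called, Orc1 and Pold1, and within experiment 1, which holds GREEN 4 and 5, 12 genes were higher and 1, Tk1, was lower. Over all genes, GREEN versus CTL gave 7890 calls with all libraries and 4481 without GREEN 4 and GREEN 5. It gave 3481 within experiment 2 and 7942 within experiment 1. GREEN 4 was the highest GREEN sample for 24 of the 29 genes, and GREEN 1 was the lowest for 22. Without CTL 3 the count was 9, with 7813 of all genes called, and it was also 9 without CTL 4, with 7029. The 2 calls in RED versus CTL were both lost when any 1 of GREEN 2, GREEN 3, GREEN 5, RED 3, RED 4, RED 5, CTL 1, CTL 2, CTL 3 or CTL 4 was left out, and Lig1 was called without CTL 2. The fits that lost both in this way called 2131 to 2641 of all genes, against 2652 in the main fit. Without CTL 5 there were 5 calls, with 2392 of all genes called. Without RED 2 there were 4, of which Mcm6 was not one, with 2760 of all genes called.

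Libraries of experiment 1 (poly(A) selection) held 22442607 to 34216824 estimated counts, and those of experiment 2 (ribosomal RNA removed) 38061859 to 44177627. Markers of other cell types were present in the samples. Of 12 bile duct markers, 12 were higher in GREEN than in CTL and 10 higher than in RED, and their summed level, in CPM (counts scaled to a common library total), was 563, 786, 3133, 8472 and 4374 CPM in GREEN 1 to 5, 101, 174, 105, 268 and 437 CPM in RED 1 to 5, and 73.3, 50.01, 47.4, 144 and 315 CPM in CTL 1 to 5. Cftr was at 0 in every CTL sample. All 12 endothelial and all 12 stellate cell markers were higher in GREEN and in RED samples than in CTL samples. Of the 12 macrophage markers, 10 were higher in GREEN and 12 in RED than in CTL. In GREEN versus RED 5 stellate markers were higher, with sums of 922 to 2892 CPM in GREEN, 338 to 1957 CPM in RED and 39.05 to 86.04 CPM in CTL, and 4 macrophage markers were lower, with sums of 154 to 601 CPM in GREEN, 126 to 1654 CPM in RED and 39.9 to 109 CPM in CTL. Of 10 neutrophil markers 7 could be tested, of which 5 were higher in GREEN and 5 in RED than in CTL and none differed by the test in GREEN versus RED; their sums were 7.51 to 47.7 CPM in GREEN, highest in GREEN 4, 6.56 to 28.9 CPM in RED and 0.472 to 3.37 CPM in CTL. Of 12 hepatocyte markers, 10 were lower in GREEN than in CTL, with sums of 35510 to 80680 CPM in GREEN, 72610 to 124800 CPM in RED and 104000 to 180800 CPM in CTL. GREEN 3, 4 and 5, with the highest bile duct sums, also had the highest TMM scaling factors, which correct library totals for unequal RNA composition, at 1.35, 1.49 and 1.43. The part of other cell types in the levels of the replication genes was not tested. In such bulk samples, fewer cells of a type and less RNA per cell cannot be told apart.

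Promoter sequence was at hand for 24 of the 29 genes (RefSeq, GRCm38.p6), and it is shown because these genes are known for E2F sites close to their starts. The cores of E2F-type sites (the form TTCCCGC, the form TTCGCGC, the form TTGCCGC and the form TTGGCGC) were searched on both strands in the 250 bases before each start, and overlapping matches were counted once. They occurred in 12 of the 24 genes, against 9.01% of the 27025 genes and 7.89% of the 32851 promoters in the table. Mcm5, Mcm6 and Pola1 held 2 or more separate cores (12.5% of the 24 genes), against 0.821% of all genes in the table. The last 170 bases before the start of 5 genes with a core and of Tyms, which has none in this window, are given here, with the cores in capitals.
Mcm5 (chr8:75109339-75109508, plus strand): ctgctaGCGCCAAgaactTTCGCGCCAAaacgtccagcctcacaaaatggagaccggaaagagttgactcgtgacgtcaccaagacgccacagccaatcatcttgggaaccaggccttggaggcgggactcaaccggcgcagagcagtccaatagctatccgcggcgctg
Mcm6 (chr1:128359706-128359875, minus strand): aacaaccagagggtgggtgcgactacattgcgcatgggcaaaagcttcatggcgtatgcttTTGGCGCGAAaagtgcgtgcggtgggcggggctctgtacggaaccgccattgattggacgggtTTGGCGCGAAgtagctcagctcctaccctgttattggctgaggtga
Pola1 (chrX:93632156-93632325, minus strand): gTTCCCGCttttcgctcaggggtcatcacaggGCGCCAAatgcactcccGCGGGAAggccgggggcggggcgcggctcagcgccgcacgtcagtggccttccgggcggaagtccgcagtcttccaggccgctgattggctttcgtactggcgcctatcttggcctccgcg
Uhrf1 (chr17:56303167-56303336, plus strand): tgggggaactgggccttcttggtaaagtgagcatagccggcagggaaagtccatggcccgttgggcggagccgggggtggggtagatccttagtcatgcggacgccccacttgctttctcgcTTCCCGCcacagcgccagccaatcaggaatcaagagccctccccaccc
Rrm1 (chr7:102441525-102441694, plus strand): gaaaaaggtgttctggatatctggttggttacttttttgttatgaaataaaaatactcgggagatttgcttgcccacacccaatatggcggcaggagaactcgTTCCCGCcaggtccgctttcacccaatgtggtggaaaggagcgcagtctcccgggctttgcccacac
Tyms (chr5:30073626-30073795, minus strand): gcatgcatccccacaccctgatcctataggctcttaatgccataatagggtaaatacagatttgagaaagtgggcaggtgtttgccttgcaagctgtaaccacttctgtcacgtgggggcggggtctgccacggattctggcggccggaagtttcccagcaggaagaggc
In Mcm6 the same stretch of 10 letters, with a core read on either strand, appears in both places, and the nearer one lies 36 bases before the start. The Uhrf1 core shown lies 41 bases before the start, and the Rrm1 core 60 bases before it. Another Uhrf1 promoter (chr17:56304063-56304362), not shown, holds a core of the form TTCGCGC 177 bases before its own start. A core was found in 7 of the 12 genes with a promoter that were called higher in GREEN versus CTL, and in 5 of the 12 that were not. CCAAT, the letters bound by NF-Y, occurred in 58.3% of the 24 genes and in 37.5% of all genes in the table. The median GC content of these windows was 58.0% for the 24 genes and 52.4% for the whole table, and its part in the motif counts was not tested. Gins1, Gins2, Gmnn, Mcm4 and Pole had no entry.

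**Figure D1:**
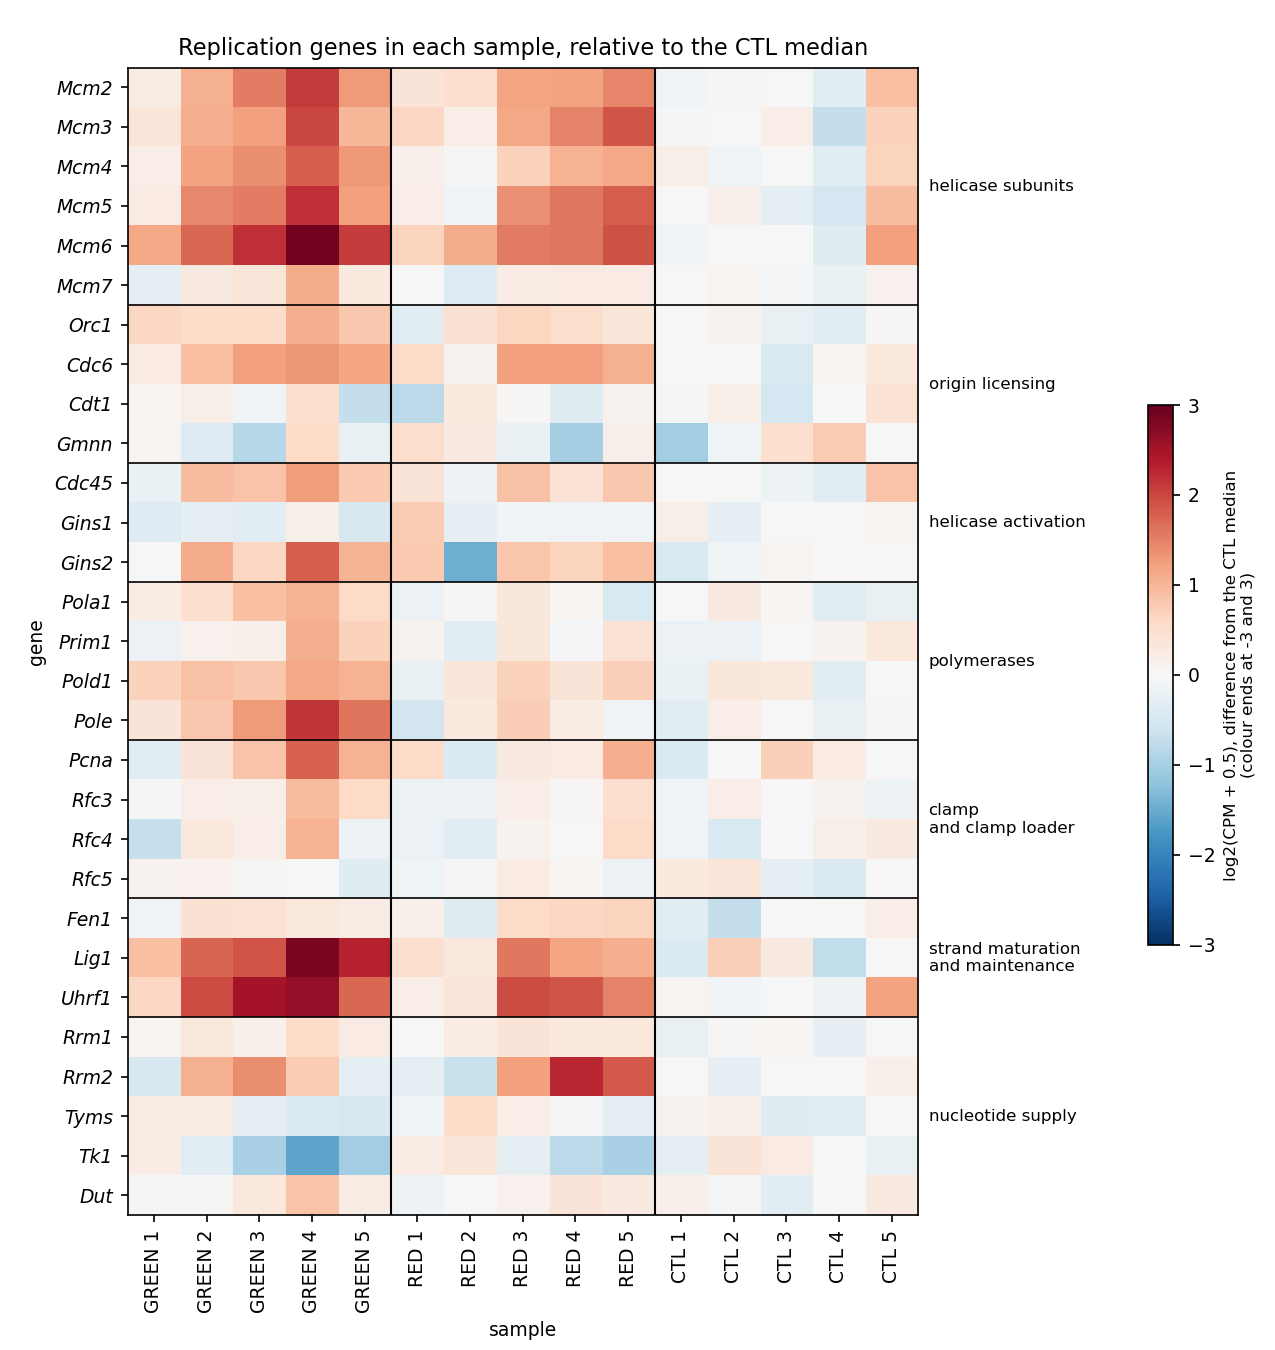
Level of each of the 29 genes (rows, grouped by role) in each of the 15 samples (columns), as the difference of log2(CPM + 0.5) from the median of the 5 CTL samples; red is higher and blue is lower. GREEN 4 is the highest GREEN sample for 24 genes, while Tk1, Tyms and Gins1 do not follow the helicase genes.

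Mcm2 to Mcm7 encode the 6 proteins that together form the ring of the replicative helicase. In GREEN versus CTL 5 of the 6 genes rose, all except Mcm7. Mcm6 (ENSMUSG00000026355.11, chromosome 1, 128331590 to 128359664) changed most. It had 9.37, 13.96, 19.7, 32.03 and 18.2 CPM in GREEN 1 to 5, 6.45, 9.06, 12.5, 12.7 and 15.9 CPM in RED 1 to 5, and 3.51, 3.92, 3.90, 2.91 and 9.80 CPM in CTL 1 to 5. All GREEN samples but GREEN 1 lay above every CTL sample, and GREEN 1 lay just under CTL 5, which stood far above the other CTL samples. The means were 18.6 ± 8.49 CPM in GREEN, 11.3 ± 3.66 CPM in RED and 4.81 ± 2.82 CPM in CTL (SD, n = 5 each). Mcm6 was called in GREEN versus CTL (log2 fold change 1.94, standard error 0.40, adjusted p = 0.00153) and in RED versus CTL (log2 fold change 1.23, standard error 0.39, adjusted p = 0.0445), but not in GREEN versus RED (log2 fold change 0.71, adjusted p = 0.220). Its call in RED versus CTL was narrow: the adjusted p was 0.0527 with the size factors of DESeq2 in place of TMM, and over all the alternatives it lay between 0.0044 and 0.241.

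Mcm2 had 3.10, 5.96, 8.42, 12.8 and 6.99 CPM in GREEN 1 to 5, 3.56, 3.87, 6.54, 6.62 and 8.09 CPM in RED 1 to 5, and 2.44, 2.69, 2.60, 1.94 and 5.28 CPM in CTL 1 to 5. GREEN 2 to 5 lay above every CTL sample and GREEN 1 within the CTL range, where CTL 5 was again the highest. Its change in GREEN versus CTL was called (log2 fold change 1.29, standard error 0.39, adjusted p = 0.0139). Mcm3 had 3.89, 6.74, 7.48, 13.3 and 6.29 CPM in GREEN 1 to 5, 4.75, 3.43, 7.16, 9.13 and 12.1 CPM in RED 1 to 5, and 2.78, 2.93, 3.42, 1.60 and 5.08 CPM in CTL 1 to 5. GREEN 1, RED 1 and RED 2 lay within the CTL range, RED 5 nearly reached GREEN 4, and the GREEN and RED means were close, 7.53 ± 3.48 CPM and 7.32 ± 3.47 CPM, against 3.16 ± 1.26 CPM in CTL. Mcm3 rose in GREEN versus CTL (log2 fold change 1.20, standard error 0.40, adjusted p = 0.0233), and in RED versus CTL it had a log2 fold change of 1.18 with an adjusted p of 0.0614.

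Mcm4 had 5.03, 10.6, 12.2, 16.3 and 11.5 CPM in GREEN 1 to 5, 4.88, 4.46, 7.33, 9.53 and 10.3 CPM in RED 1 to 5, and 4.96, 4.02, 4.33, 3.36 and 7.17 CPM in CTL 1 to 5. GREEN 2 to 5 were above every CTL sample, and GREEN 1 was not. The difference from CTL was called (log2 fold change 1.20, standard error 0.33, adjusted p = 0.00840). Mcm5 had 2.54, 6.43, 6.90, 11.2 and 5.46 CPM in GREEN 1 to 5, 2.42, 1.87, 6.06, 7.14 and 8.56 CPM in RED 1 to 5, and 2.05, 2.35, 1.61, 1.31 and 4.37 CPM in CTL 1 to 5. RED 1 and RED 2 lay inside the CTL range and RED 3 to 5 above it, so the RED group was split, and GREEN 1 was again the low GREEN sample. Mcm5 passed in GREEN versus CTL (log2 fold change 1.47, standard error 0.50, adjusted p = 0.0257).

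Mcm7, singled out after its values were seen, had 10.1, 15.1, 16.1, 27.5 and 15.3 CPM in GREEN 1 to 5, 12.3, 9.35, 14.5, 14.9 and 14.98 CPM in RED 1 to 5, and 12.4, 13.1, 11.9, 10.7 and 13.7 CPM in CTL 1 to 5. Only GREEN 4 stood clear of the other samples. The fitted log2 fold change was 0.42 in GREEN versus CTL (standard error 0.22, adjusted p = 0.129). Per kilobase of exon, the CTL level of Mcm7 was 2.80 CPM, against 0.4299 to 1.33 CPM for Mcm2 to Mcm6; in GREEN samples the level of Mcm6 per kilobase was 3.995 CPM and that of Mcm7 3.80 CPM. The genes Cops6 and Ap4m1 overlap Mcm7 on the other strand, and the sources used here do not say whether the authors' counting used strand. Among the genes called in GREEN versus CTL, Gins2, Pola1, Pold1 and Lig1 also overlap a gene on the other strand. Pole overlaps one on its own strand.

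**Figure D2:**
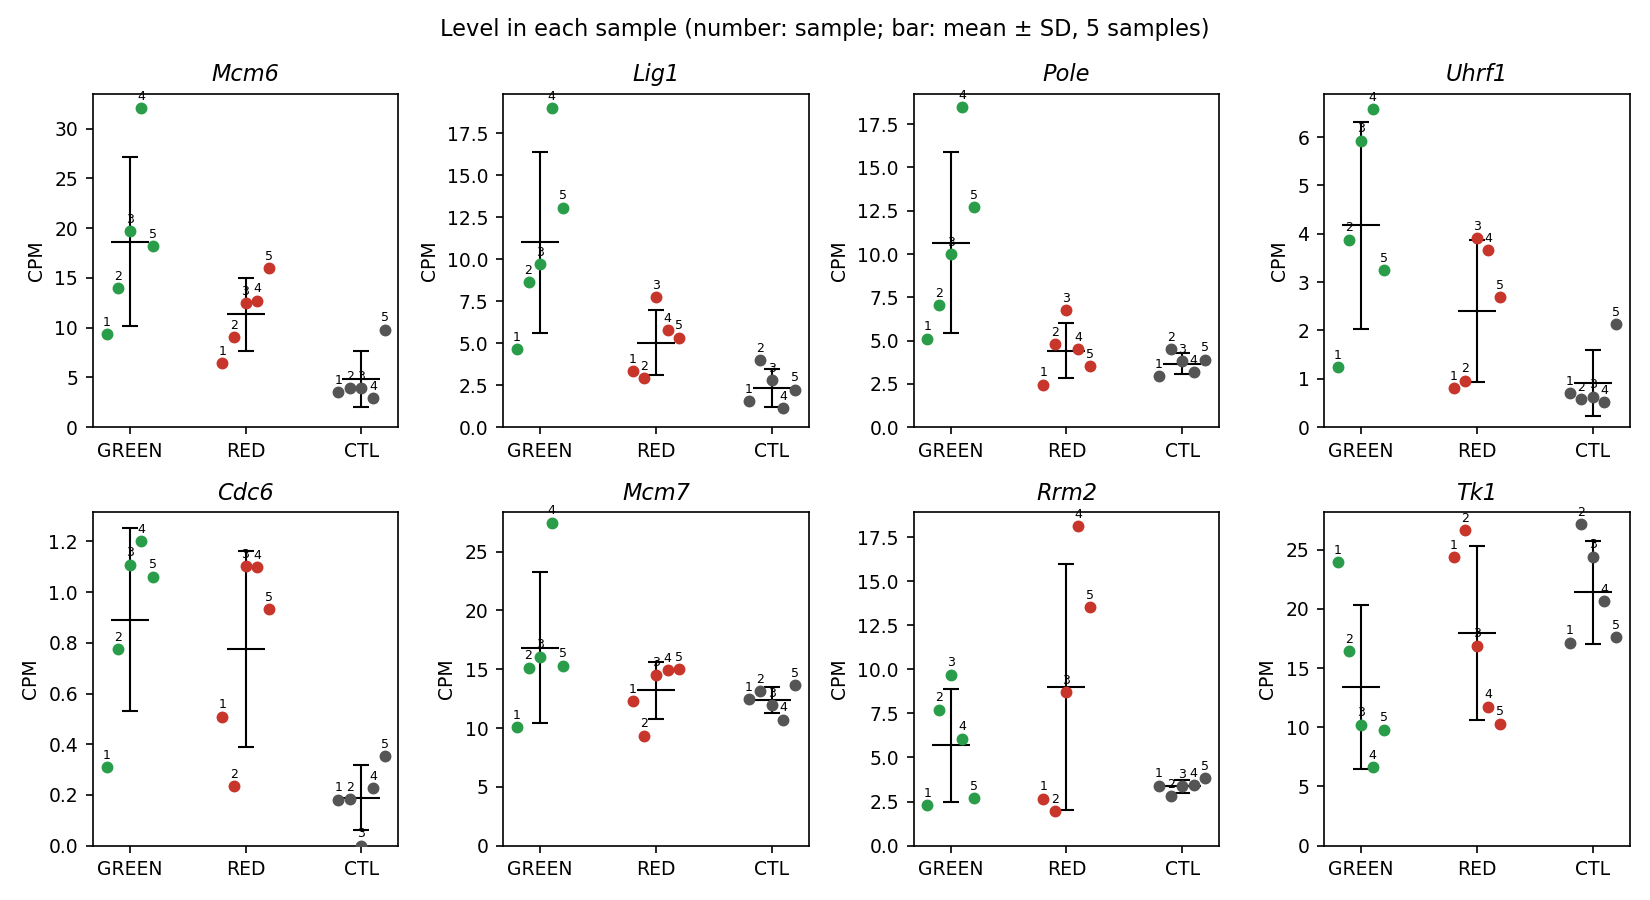
Level in CPM (y axis, from 0) of 8 replication genes in the 5 GREEN, 5 RED and 5 CTL samples; small numbers give the sample, the long bar the mean and the whiskers the SD. GREEN 4 is the highest sample for Mcm6, Lig1, Pole, Uhrf1, Cdc6 and Mcm7 and the lowest for Tk1.

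Orc1, the largest subunit of the origin recognition complex, and Cdc6, which joins it to load the helicase, were low genes with large fold changes. Orc1 had 0.476, 0.429, 0.425, 0.848 and 0.600 CPM in GREEN 1 to 5, 0, 0.363, 0.479, 0.406 and 0.311 CPM in RED 1 to 5, and 0.130, 0.183, 0.0394, 0 and 0.148 CPM in CTL 1 to 5, which was 21 to 43 counts in GREEN, 0 to 20 in RED and 0 to 7 in CTL. Every GREEN sample lay above every CTL sample. The rise in GREEN versus CTL was called (log2 fold change 2.50, standard error 0.69, adjusted p = 0.00892). Cdc6 had 0.310, 0.776, 1.11, 1.20 and 1.06 CPM in GREEN 1 to 5, 0.509, 0.234, 1.10, 1.10 and 0.934 CPM in RED 1 to 5, and 0.182, 0.183, 0, 0.228 and 0.354 CPM in CTL 1 to 5, at 15 to 61, 9 to 46 and 0 to 12 counts in GREEN, RED and CTL samples. GREEN 1 and RED 2 lay within the CTL range, and the other GREEN and RED samples above it. Cdc6 rose in GREEN versus CTL (log2 fold change 2.22, standard error 0.65, adjusted p = 0.0120) and in RED versus CTL (log2 fold change 2.01, standard error 0.64, adjusted p = 0.0463). In the RED comparison the adjusted p was 0.0517 with the size factors of DESeq2, and between 0.00772 and 0.399 over all the alternatives. Cdt1, the loading partner of Cdc6, and Gmnn, which encodes geminin, the inhibitor of Cdt1, were not called in any comparison. Cdt1 spanned 1.59 to 4.28 CPM in GREEN, 1.49 to 3.69 CPM in RED and 1.85 to 4.07 CPM in CTL, and Gmnn 2.01 to 6.35 CPM, 1.79 to 6.07 CPM and 1.72 to 7.24 CPM in the same order. Their log2 fold changes in GREEN versus CTL were 0.01 and -0.20, and the groups overlapped almost fully.

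Of the helicase activators, Gins2 rose in GREEN versus CTL. It had 2.94, 6.86, 4.78, 11.3 and 6.41 CPM in GREEN 1 to 5, 5.35, 0.727, 5.53, 4.92 and 5.91 CPM in RED 1 to 5, and 2.001, 2.64, 3.11, 2.91 and 2.92 CPM in CTL 1 to 5. GREEN 1 and RED 2 were the low samples of their groups, RED 2 far below all others. The change in GREEN versus CTL was called (log2 fold change 1.19, standard error 0.42, adjusted p = 0.0308), and RED versus CTL gave a log2 fold change of 0.69 with an adjusted p of 0.331. Cdc45 spanned 0.476 to 2.19 CPM in GREEN, 0.519 to 1.58 CPM in RED and 0.399 to 1.53 CPM in CTL, and its log2 fold change in GREEN versus CTL, 0.96, missed the threshold (adjusted p = 0.111). Gins1, a second subunit of the same GINS complex, had log2 fold changes of -0.33 in GREEN versus CTL and -0.40 in GREEN versus RED, neither of them called, with adjusted p values of 0.315 and 0.309. The difference between the changes of Gins1 and Gins2 was not tested.

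The polymerase genes were the only role group with calls in GREEN versus RED. Pole, the catalytic subunit of the leading-strand polymerase epsilon, had 5.11, 7.04, 10.00, 18.5 and 12.7 CPM in GREEN 1 to 5, 2.46, 4.78, 6.75, 4.51 and 3.54 CPM in RED 1 to 5, and 2.94, 4.49, 3.82, 3.19 and 3.90 CPM in CTL 1 to 5. Every GREEN sample lay above every CTL sample, while GREEN 1 lay within the RED range. The means were 10.7 ± 5.23 CPM in GREEN, 4.41 ± 1.60 CPM in RED and 3.67 ± 0.616 CPM in CTL (SD, n = 5 each). Pole rose in GREEN versus RED (log2 fold change 1.24, standard error 0.35, adjusted p = 0.0336) and in GREEN versus CTL (log2 fold change 1.52, standard error 0.34, adjusted p = 0.00274), and had a log2 fold change of 0.28 in RED versus CTL.

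Pola1, the catalytic subunit of polymerase alpha, which with primase starts each new strand, had 8.77, 10.9, 14.4, 15.97 and 11.7 CPM in GREEN 1 to 5, 6.58, 7.71, 9.65, 7.86 and 5.29 CPM in RED 1 to 5, and 7.48, 9.17, 7.79, 5.82 and 6.38 CPM in CTL 1 to 5. RED and CTL samples covered nearly the same range, and 4 of the 5 GREEN samples lay above both; GREEN 1 lay under RED 3 and CTL 2. Pola1 rose in GREEN versus RED (log2 fold change 0.75, standard error 0.20, adjusted p = 0.0297) and in GREEN versus CTL (log2 fold change 0.76, standard error 0.20, adjusted p = 0.00707). Without GREEN 4 and GREEN 5 the GREEN versus RED log2 fold changes were 0.59 for Pole (adjusted p = 0.649) and 0.49 for Pola1 (adjusted p = 0.495). Neither gene was called when any 1 of GREEN 3, GREEN 4, GREEN 5, RED 1, RED 4 or RED 5 was left out, with adjusted p values of 0.0506 to 0.105. With the library code as block, which ties GREEN to RED samples of the same code, the adjusted p was 0.0966 for Pola1 and 0.133 for Pole, and with CTL also left out 0.147 and 0.183. The labels do not say whether a shared code means a shared animal. Within experiment 1, with 2 GREEN and 5 RED libraries, the log2 fold changes of Pole and Pola1 were 2.06 (adjusted p = 0.00131) and 1.198 (adjusted p = 0.00669), and within experiment 2, with 3 of each, 0.47 (adjusted p = 0.805) and 0.43 (adjusted p = 0.723). Over all genes, GREEN versus RED gave 2114 calls in the main fit, 5351 within experiment 1 and 77 within experiment 2. Without GREEN 4 and GREEN 5 it gave 268, and with the library code as block 947, or 914 with CTL also left out. Leaving out any 1 of GREEN 3 to 5, RED 1, RED 4 or RED 5 gave 866 to 1679.

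Pold1, the catalytic subunit of polymerase delta, had 5.21, 5.96, 5.67, 7.37 and 6.78 CPM in GREEN 1 to 5, 2.55, 4.05, 5.20, 4.11 and 5.33 CPM in RED 1 to 5, and 2.57, 3.97, 3.82, 2.34 and 3.04 CPM in CTL 1 to 5. The GREEN samples were close to each other and all above every CTL sample, and GREEN 1 overlapped the top of the RED range. The change in GREEN versus CTL was called (log2 fold change 0.97, standard error 0.23, adjusted p = 0.00395), and the one in GREEN versus RED, a log2 fold change of 0.54, was not (adjusted p = 0.129). Prim1, the small primase subunit, spanned 3.12 to 8.24 CPM in GREEN, 2.78 to 4.98 CPM in RED and 3.12 to 4.54 CPM in CTL and was not called in any comparison. The summed level of the 4 genes was 22.2, 27.9, 34.1, 50.05 and 37.2 CPM in GREEN 1 to 5, 15.4, 19.3, 26.3, 19.97 and 19.1 CPM in RED 1 to 5, and 16.1, 20.8, 19.01, 15.2 and 17.9 CPM in CTL 1 to 5.

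**Figure D3:**
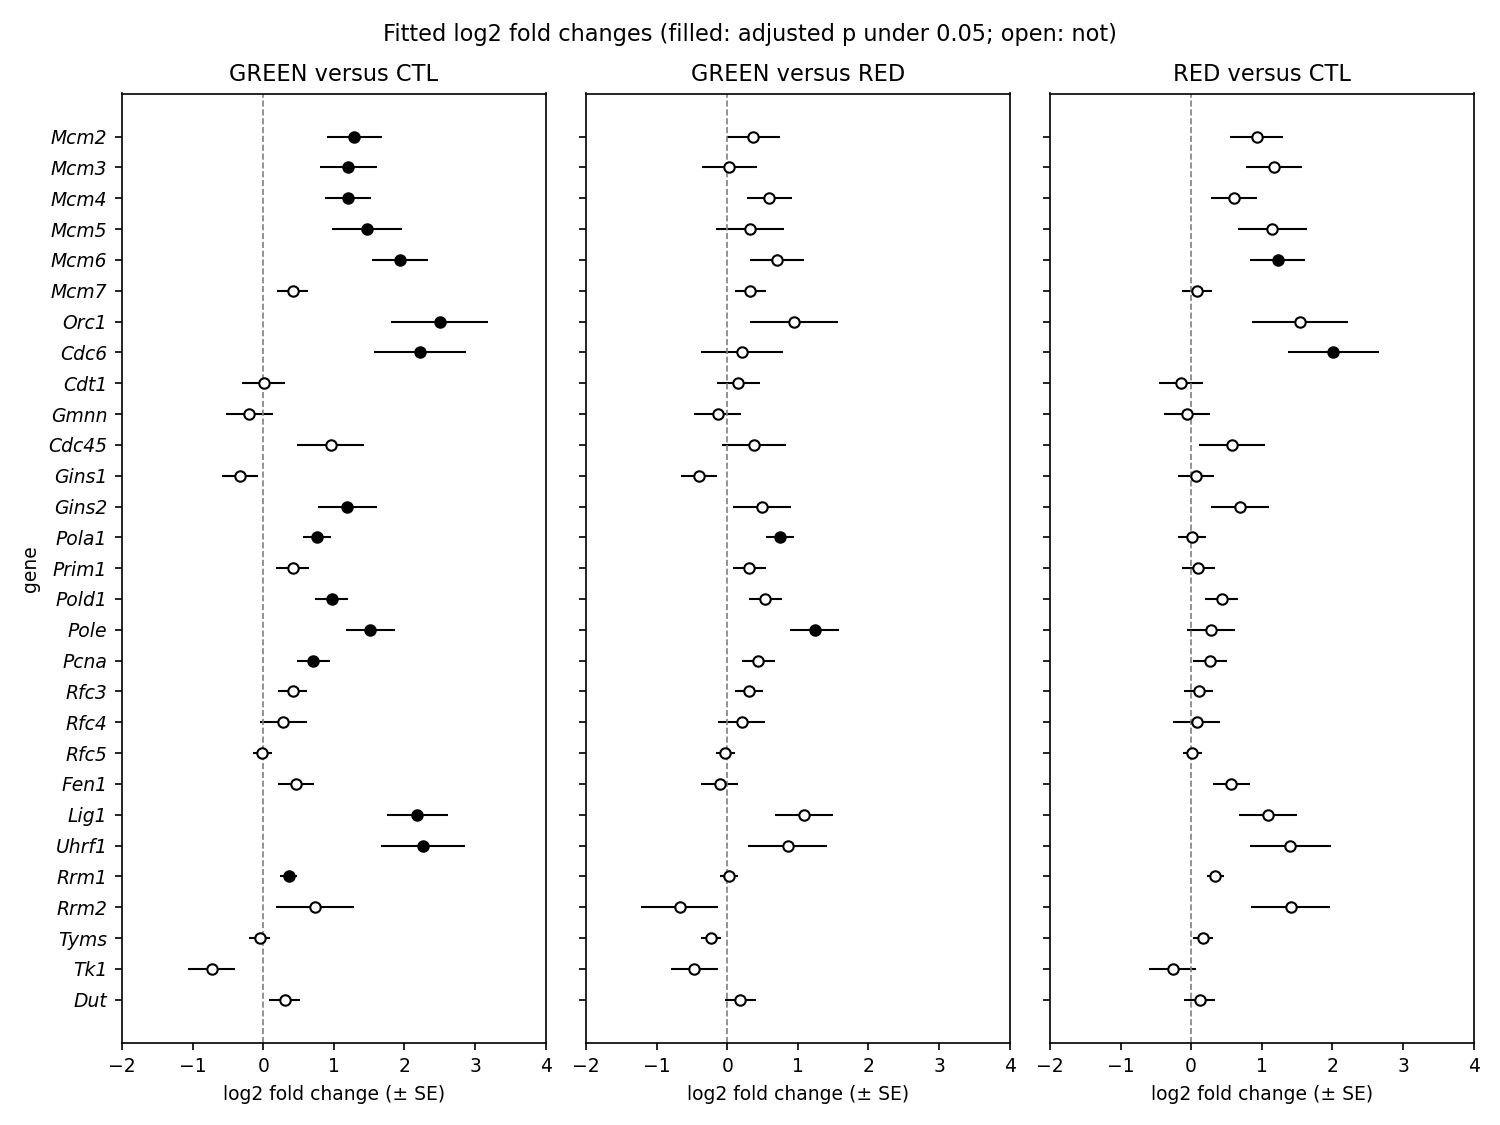
Fitted log2 fold change (x axis) with its standard error for each of the 29 genes (y axis) in GREEN versus CTL, GREEN versus RED and RED versus CTL; filled points passed an adjusted p of 0.05 over all genes tested. Filled points number 15 on the left, all right of 0, and 2 in each of the other panels.

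Pcna, the sliding clamp that holds the polymerases on DNA, was the most abundant of the 29 genes per kilobase of exon in each group. It had 12.5, 20.5, 28.4, 54.8 and 32.7 CPM in GREEN 1 to 5, 23.7, 11.5, 19.02, 18.5 and 33.7 CPM in RED 1 to 5, and 11.5, 15.4, 25.9, 18.7 and 15.6 CPM in CTL 1 to 5. GREEN 4 stood apart and GREEN 1 lay at the low end of the CTL range, so the groups overlapped. Pcna rose in GREEN versus CTL (log2 fold change 0.71, standard error 0.24, adjusted p = 0.0238). Its processed pseudogenes Pcna-ps1 and Pcna-ps2 can share reads with it. Rfc3, Rfc4 and Rfc5, subunits of the clamp loader, were not called in any comparison. Their log2 fold changes in GREEN versus CTL were 0.42, 0.28 and -0.01, the last of which was 0.70 (adjusted p = 0.00839) with libraries scaled by their totals, where the median of all genes was 0.83. Rfc5 averaged 9.31 ± 1.26 CPM in GREEN, 9.48 ± 1.19 CPM in RED and 9.51 ± 2.39 CPM in CTL (SD, n = 5 each).

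Lig1, the ligase that joins the fragments of the lagging strand, had 4.65, 8.63, 9.69, 18.98 and 13.1 CPM in GREEN 1 to 5, 3.35, 2.93, 7.74, 5.78 and 5.33 CPM in RED 1 to 5, and 1.56, 3.998, 2.79, 1.14 and 2.24 CPM in CTL 1 to 5. Every GREEN sample lay above every CTL sample, and of the RED samples RED 1 and RED 2 lay in the CTL range and the others above it. The means were 11.01 ± 5.38 CPM in GREEN, 5.03 ± 1.95 CPM in RED and 2.35 ± 1.12 CPM in CTL (SD, n = 5 each). Lig1 rose in GREEN versus CTL (log2 fold change 2.18, standard error 0.43, adjusted p = 0.00109), and had log2 fold changes of 1.09 in GREEN versus RED (adjusted p = 0.0904) and 1.09 in RED versus CTL (adjusted p = 0.0962). Uhrf1, which brings the maintenance DNA methyltransferase to newly copied DNA, had 1.24, 3.88, 5.92, 6.58 and 3.25 CPM in GREEN 1 to 5, 0.806, 0.961, 3.90, 3.65 and 2.68 CPM in RED 1 to 5, and 0.702, 0.575, 0.630, 0.513 and 2.12 CPM in CTL 1 to 5. GREEN 1 lay below CTL 5, and both RED 1 and RED 2 were near the other CTL samples. Uhrf1 rose in GREEN versus CTL (log2 fold change 2.26, standard error 0.59, adjusted p = 0.00644), with a log2 fold change of 1.40 in RED versus CTL (adjusted p = 0.127). Fen1, the nuclease that trims the flaps of lagging-strand fragments, spanned 3.60 to 5.59 CPM in GREEN, 2.93 to 6.50 CPM in RED and 2.22 to 4.60 CPM in CTL and was not called.

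Of 5 genes of nucleotide supply 1, Rrm1, was called in GREEN versus CTL, and none in the other comparisons. Rrm1, the large subunit of ribonucleotide reductase, had 16.8, 20.2, 18.03, 24.1 and 19.1 CPM in GREEN 1 to 5, 16.3, 18.8, 21.2, 20.1 and 20.2 CPM in RED 1 to 5, and 13.7, 16.4, 16.8, 13.4 and 16.1 CPM in CTL 1 to 5. Every GREEN sample lay above every CTL sample, by a small margin. The change was small (log2 fold change 0.36, standard error 0.12, adjusted p = 0.0260), and the log2 fold change in RED versus CTL was 0.34 (adjusted p = 0.0828). Rrm2, the small subunit of the same enzyme, was singled out after its values were seen. It had 2.29, 7.72, 9.69, 6.07 and 2.70 CPM in GREEN 1 to 5, 2.67, 1.95, 8.69, 18.1 and 13.5 CPM in RED 1 to 5, and 3.40, 2.80, 3.38, 3.42 and 3.84 CPM in CTL 1 to 5. RED 3 to 5 and GREEN 2 to 4 were above every CTL sample, and GREEN 1, GREEN 5, RED 1 and RED 2 were below every CTL sample. No comparison was called, and the adjusted p was 0.115 in RED versus CTL.

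Tk1, thymidine kinase of the salvage pathway, was singled out after its values were seen because it ran the other way. It had 23.97, 16.4, 10.2, 6.60 and 9.80 CPM in GREEN 1 to 5, 24.4, 26.6, 16.9, 11.7 and 10.3 CPM in RED 1 to 5, and 17.1, 27.1, 24.4, 20.6 and 17.6 CPM in CTL 1 to 5. GREEN 2 to 5 lay below every CTL sample and GREEN 1 within the CTL range, and the lowest RED samples were RED 4 and RED 5. The log2 fold change in GREEN versus CTL was -0.73 and was not called (adjusted p = 0.0856), and an adjusted p under 0.05 was reached in 10 of 30 alternatives. Afmid, a gene of tryptophan breakdown that overlaps Tk1 on the other strand (chromosome 11, 117825924 to 117839908), had 73.8, 81.9, 28.8, 17.5 and 41.8 CPM in GREEN 1 to 5, 129, 85.98, 96.6, 59.1 and 43.5 CPM in RED 1 to 5, and 114, 169, 141, 86.7 and 75.1 CPM in CTL 1 to 5, with a log2 fold change of -1.31 in GREEN versus CTL (standard error 0.40, adjusted p = 0.0156). The part of Afmid reads in the Tk1 values was not tested. Tyms, thymidylate synthase, and Dut, which removes dUTP, were not called in any comparison, with log2 fold changes in GREEN versus CTL of -0.05, which was 0.66 (adjusted p = 0.00346) with libraries scaled by their totals, and 0.30.

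The order of the GREEN samples was alike in 5 of the 7 role groups, where the summed level was highest in GREEN 4 and lowest in GREEN 1. Among RED and CTL samples the highest one differed from role to role. GREEN 4 was highest and GREEN 1 lowest for Mcm2 to Mcm7, whose summed level was 33.97, 58.9, 70.8, 113 and 63.7 CPM in GREEN 1 to 5, 34.4, 32.04, 54.1, 60.03 and 70.1 CPM in RED 1 to 5, and 28.2, 29.03, 27.8, 21.8 and 45.4 CPM in CTL 1 to 5. RED 2 was the lowest RED sample for 14 of the 29 genes and RED 1 for 10, while RED 5 was the highest for 13 and RED 3 for 9. CTL 5 was the highest CTL sample for 15. RED 2, RED 3 and RED 4 had a library in each experiment, and RED 2 was the lowest of the 3 for 20 genes in experiment 1, 24 in experiment 2 and 20 in both. Within the 4 samples with 2 libraries, 9 genes were higher in the poly(A) library every time, 5 were lower every time and 15 were mixed.

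Mitosis genes, the set closest to them in the cell cycle, were counted beside them. Of 30, 26 rose in GREEN versus CTL, none passed in GREEN versus RED, and 27 rose in RED versus CTL, with median log2 fold changes of 2.54, -0.47 and 2.96. Of all genes tested, 29.5% were higher in GREEN versus CTL and 14.2% in RED versus CTL. In GREEN versus RED 2 mitosis genes had an unadjusted p under 0.05 by edgeR. DESeq2 and limma-voom also called 0, and the median was negative under every alternative. With the experiment 1 library of the samples with 2, 2 mitosis genes were called lower. With both libraries summed, within experiment 1, and without RED 2, 1 was. With the library code as block and CTL left out, none was called and 12 had an unadjusted p under 0.05. Cdk1, the kinase that drives entry into mitosis, averaged 6.56 ± 2.76 CPM in GREEN, 8.40 ± 4.84 CPM in RED and 1.00 ± 0.26 CPM in CTL (SD, n = 5 each). The summed mitosis level was 55.7, 251, 184, 171 and 91.9 CPM in GREEN 1 to 5, 90.4, 58.5, 294, 312 and 284 CPM in RED 1 to 5, and 38.95, 47.9, 65.97, 29.2 and 34.2 CPM in CTL 1 to 5. Compared sample by sample, RED 3, 4 and 5 had the highest mitosis sums of all, above GREEN 4, while their Mcm2 to Mcm7 sums were below that of GREEN 4. The difference between the lists was not tested. Without GREEN 4 and GREEN 5, 10 mitosis genes were called in GREEN versus CTL. Limma-voom called 14 in GREEN versus CTL and 8 in RED versus CTL. Experiment 1 alone gave 10 in GREEN versus CTL and 9 in RED versus CTL, and experiment 2 alone gave 7 and 5. Without RED 5 the count in RED versus CTL was 18, with 2131 of all genes called. Of all genes, the main fit called 7890 in GREEN versus CTL and 2652 in RED versus CTL. Limma-voom called 7677 and 2239 of all genes, experiment 1 alone 7942 and 2093, and experiment 2 alone 3481 and 1207. The GREEN versus CTL fit without GREEN 4 and GREEN 5 called 4481.

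**Figure D4:**
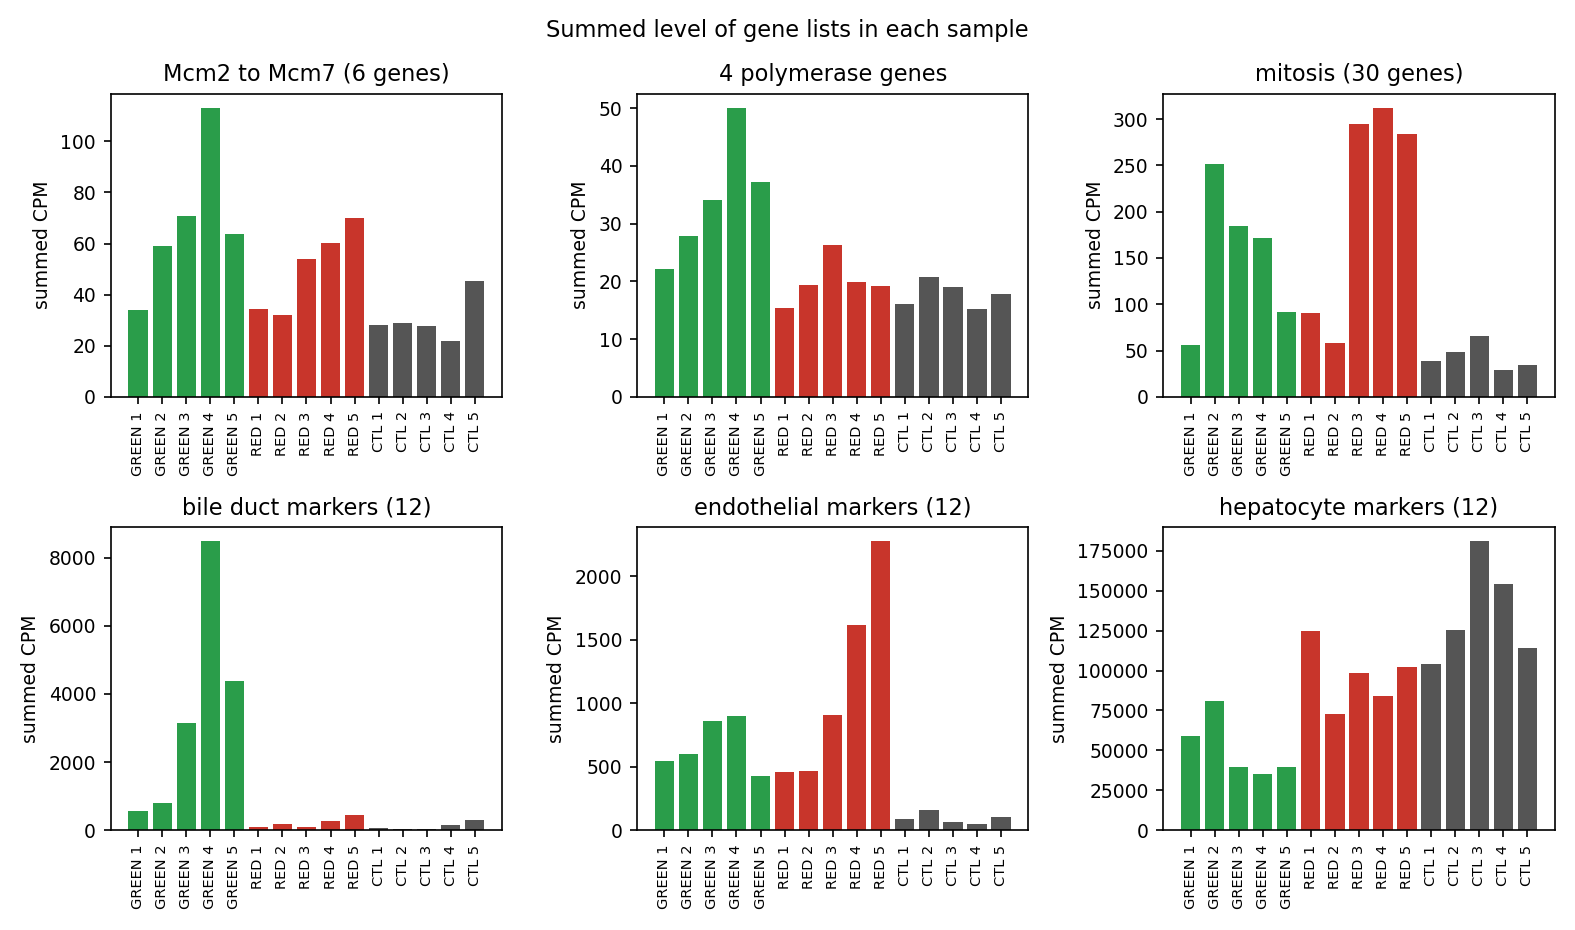
Summed CPM (y axis, from 0) of the 6 helicase genes, the 4 polymerase genes, 30 mitosis genes and 12 markers each of bile duct, endothelium and hepatocytes, 1 bar per sample, GREEN, RED and CTL from left to right. The helicase and polymerase sums are highest in GREEN 4 (113 and 50.1 CPM), the bile duct sum too, and the mitosis sum in RED 4 (312 CPM).

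Beyond the 29 genes, 60 other DNA replication genes were counted. In GREEN versus CTL 17 rose and 8 fell, with a median log2 fold change of 0.17. The 17 are 28.3% of the 60, near the 29.5% of all genes that were higher, and 18.6% of all genes were lower. Pole2, a further subunit of polymerase epsilon, averaged 1.34 ± 0.44 CPM in GREEN, 0.99 ± 0.21 CPM in RED and 0.36 ± 0.13 CPM in CTL. It rose in GREEN versus CTL (log2 fold change 1.85, standard error 0.35, adjusted p = 0.000842) and in RED versus CTL (log2 fold change 1.435, adjusted p = 0.00987). Pold3, of polymerase delta, averaged 18.4 ± 8.83 CPM in GREEN, 8.74 ± 0.78 CPM in RED and 9.33 ± 1.65 CPM in CTL, and rose in GREEN versus CTL (adjusted p = 0.00238) and in GREEN versus RED (log2 fold change 0.97, adjusted p = 0.00688). None of the 60 was called higher in GREEN versus RED within experiment 2, without GREEN 4 and GREEN 5, or with the library code as block. Those fits called 76, 268 and 860 of all genes higher, against 1586 in the main fit. Mcm10, which helps to start the helicase, fell to 11.8 ± 6.98 CPM in GREEN, against 60.8 ± 44.6 CPM in CTL (log2 fold change -2.38, adjusted p = 0.00187). Its level in RED was 20.75 ± 6.92 CPM.

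In RED versus CTL 5 of the 60 rose and 1 fell, and the 8.33% higher is below the 14.2% of all genes. Top2a, the topoisomerase of dividing cells, averaged 12.8 ± 7.96 CPM in RED and 2.29 ± 0.96 CPM in CTL (adjusted p = 0.00429), and Dbf4, the activator of the replication kinase Cdc7, 5.86 ± 2.46 CPM in RED and 1.70 ± 0.47 CPM in CTL (adjusted p = 0.0027). Of 26 genes of S-phase entry and its checkpoint, 10 rose and 2 fell in GREEN versus CTL, 1 rose in GREEN versus RED and 1 rose in RED versus CTL. Those called higher are 38.5% in GREEN versus CTL, beside 29.5% of all genes, and 3.85% in each of the other comparisons, below the 9.68% and 14.2% of all genes. In GREEN versus CTL 1 of the 26 was called higher without GREEN 4 and GREEN 5, and 1 within experiment 2. Those fits called 2812 and 2665 of all genes higher, against 4839 in the main fit. Cdc25a, the phosphatase that frees the S-phase kinases, rose in GREEN versus CTL (log2 fold change 1.42, adjusted p = 0.0025). E2f8, a repressor of E2F targets, fell to 7.21 ± 2.88 CPM in GREEN, against 29.8 ± 21.6 CPM in CTL (log2 fold change -1.91, adjusted p = 0.00233). In RED it averaged 13.04 ± 6.26 CPM, with a log2 fold change of -1.19 in RED versus CTL that was not called (adjusted p = 0.0659). Wee1, the kinase that restrains Cdk1, rose in GREEN versus RED (log2 fold change 1.30, adjusted p = 0.0155). No gene of this list was called in GREEN versus RED without GREEN 3, without GREEN 4, without RED 1, within experiment 2, or with the library code as block. Those fits called 866, 904, 896, 77 and 947 of all genes, against 2114 in the main fit. Ccna2, the cyclin of S phase and G2, was the gene that rose in RED versus CTL (log2 fold change 3.44, adjusted p = 0.00848), and no gene of the list was called there within experiment 2.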

How the data were processed

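RNA-seq of mouse hepatocytes was analysed in 3 groups (GREEN, RED and CTL, taken from the labels) of 5 samples each, from 19 libraries made in 2 experiments with an input of 150 ng total RNA (per the labels' protocols): TruSeq Stranded mRNA in experiment 1 (10 libraries) and KAPA RNA HyperPrep with RiboErase in experiment 2 (9 libraries). The sources used here do not say how RNA was extracted. The deposited values are the authors' estimated counts per gene, not normalized, made with kallisto 0.43.1 on GRCm38 per the submitters' processing notes; pseudo-alignment divides reads among near-identical copies, and 12 of the 29 genes overlap another gene, 10 of them one on the other strand. Symbols and positions came from GENCODE vM21 (GRCm38), which held 34924 of 35274 identifiers (99.0%), and promoters from RefSeq (GRCm38.p6).

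Rounding made the estimated counts whole. Each sample entered with 1 library, the one of experiment 2 where it had 2 (CTL 5, RED 2, RED 3 and RED 4), which left 15 libraries, 2 of experiment 1 and 3 of experiment 2 per group. Genes were filtered with filterByExpr (16387 left) and scaled by TMM, and group and experiment were fitted to all 3 groups with edgeR 4.0.16 in R 4.3.3. Quasi-likelihood F tests were adjusted by Benjamini-Hochberg over all genes tested, with a threshold of 0.05, and a gene is said to be called when it passed. The procedure was also run on simulated counts. These had the same spread for every gene, changes in RED only and no difference between experiments, so they do not cover those features of the data. CPM are counts scaled by the TMM-adjusted library size to a common total, and each standard error belongs to the fitted log2 fold change beside it. Motif matches are exact and descriptive. Limma 3.58.1 (voom) and DESeq2 1.42.0 were alternatives, with other scalings, filters, libraries and left-out samples.

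The 29 genes, their role groups and the other lists were chosen with earlier results of these data known, so no test over a list is given. Values in every sample are given for each gene called in any comparison, and the other genes by range or fold change; of other lists at most 4 genes with the smallest p per comparison are named. Mcm7, Rrm2, Tk1 and Afmid are exceptions, chosen after their values were seen. Some genes of the other lists are not reported here. The labels call the samples biological replicates and do not say which share an animal, so p-values measure the spread between these samples. GREEN 3 and GREEN 4 carry the same code in their library descriptions, which differ only in the ending. The same holds for the 2 libraries of RED 4, which share a title. Only their titles mark GREEN 3 and GREEN 4 as separate samples. Counted once, with GREEN 4 left out, GREEN versus CTL called 10 of the 29 genes and 6709 of all genes. The main fit called 15 and 7890. Counting error is larger for the low genes Orc1 and Cdc6.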

Additional observations from a re-analysis of the deposited data

Results flagged for a closer look

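Among 87 sets of 5 values (29 genes in 3 groups), 7 held a sample far from the other 4, measured by the gap to its nearest neighbour as a share of the range. Chance gives about 1 in 20. Of the 7, 4 were in CTL 5, which was high for Mcm2 (5.28 CPM, the other CTL samples 1.94 to 2.69), Mcm6 (9.80 CPM, the others 2.91 to 3.92), Cdc45 (1.53 CPM, the others 0.399 to 0.627) and Uhrf1 (2.12 CPM, the others 0.513 to 0.702). CTL 5 also had the highest summed level of bile duct markers in its group, 315 CPM, beside 47.4 to 144 CPM in the other CTL samples. The part of these markers in the CTL 5 values was not tested. Its library of the poly(A) experiment gave Mcm6 11.7 CPM, beside 9.52 CPM in its library of the other experiment when all 19 libraries were scaled together.

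Gins1 was high in GREEN 4 (2.60 CPM, the other GREEN samples 1.48 to 1.74) and in RED 1 (4.12 CPM, the others 1.82 to 2.08). Gins2 was low in RED 2, at 0.727 CPM, where the other RED samples had 4.92 to 5.91 CPM.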

How the results depend on the processing

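Over all alternatives, 403 of 572 values of called genes stayed called and 0 changed sign, but no gene was called under every alternative. Of 2066 values of genes not called, 180 had the opposite sign and 49 were called.

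GREEN versus CTL (15 called) gave 10 to 17 calls under 11 alternatives, 25 with libraries scaled by totals, 2 in experiment 2 alone, 2 once GREEN 4 and 5 were left out and 0 once GREEN 3, 4 and 5 were (unadjusted p under 0.05 in 2; these last 2 fits were chosen after seeing the data). Of all genes, 7890 were called in the main fit and 3481 in experiment 2 alone. The fit without GREEN 4 and 5 called 4481 of all genes, and the fit without GREEN 3, 4 and 5 called 2176. Leaving out 1 sample gave 9 to 18 of the 29. Totals moved the median of all genes to 0.83, 0.42 and 0.33 in GREEN versus CTL, GREEN versus RED and RED versus CTL; there Rfc5 (0.705) and Tyms (0.659) turned positive and were called in GREEN versus CTL, below that median, and 10077 of 10544 genes called were higher, against 4839 of 7890.

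GREEN versus RED (2 called) gave 5 with totals, 4 in experiment 1 alone (3 higher, 1 lower) and 0 with limma-voom, in experiment 2 alone, with only the compared groups, with GREEN 3 and GREEN 4 counted once (GREEN 4 left out), and without GREEN 4 and 5 or GREEN 3 to 5, where 4, 0, 3, 2, 1 and 0 genes had an unadjusted p under 0.05. Of all genes, 2114 were called in the main fit. The fits that gave 0 called 2426, 77, 1283, 904, 268 and 52 of all genes, in the same order. Leaving out 1 sample gave 0 to 3 of the 29. RED versus CTL (2 called, DESeq2 3) gave 5 with totals, 1 without the experiment term, 1 without GREEN 4 and 5 or GREEN 3 to 5, and 0 with the size factors of DESeq2, no filter, limma-voom, the experiment 1 or summed libraries, either experiment alone and only the compared groups, where 10, 10, 5, 4, 6, 2, 4 and 8 had an unadjusted p under 0.05. Leaving out 1 sample gave 0 to 5. Of all genes, RED versus CTL called 2652 in the main fit and 2907 with totals. The fits named above that gave 0 called 2720, 2525, 2239, 2037, 2745, 2093, 1207 and 2534 of all genes, in the same order. The cause of these changes was not tested.

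With the title number as replicate block the counts were 15, 2 and 1 (in GREEN versus CTL 14 higher and 1 lower). With the library code as block, GREEN versus RED gave 0, and 0 with CTL left out (unadjusted p under 0.05 in 3 and 2). These fits called 947 and 914 of all genes. Deviations of GREEN 1 to 5 correlated with those of the RED sample of the same code at 0.577, 0.398, 0.78, 0.435 and -0.223. The highest correlation with any RED sample was 0.578, 0.43, 0.78, 0.449 and 0.276. By this, 1 of the 5 GREEN samples was most like the RED sample of its own code, in part by narrow margins. Whether the code pairs the samples is not settled. In GREEN versus CTL the other 60 replication genes gave 0 to 46 higher and 0 to 8 lower, and the 30 mitosis genes 2 to 30 higher. Depth limits Orc1 and Cdc6, at 0 to 61 counts per sample.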
